A study of Mus musculus with 9 samples.

Results

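Cytosolic ribosomal protein genes were followed from control thymocytes to β-catenin-driven thymic tumours of the mouse. Genes were taken by symbol (Rpl, Rps or Rplp and a number, without the Rps6k kinases and pseudogene symbols), which gave 49 of the 18193 genes that had an array probe set naming 1 gene only. Of these, 26 carried large-subunit and 23 small-subunit symbols. RefSeq lists 88 protein coding genes that fit the same rule. Of them, 48 had a probe set of their own, 31 were read only by probe sets that also name another gene, and 9 had no named probe set. A total of 47 of the 49 genes passed the filter on low signals. The skeletal and heart muscle form Rpl3l did not, with signals of 0.3 to 15.8, nor did Rps16, whose only single-gene probe set read 0.1 to 2.2.

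All 9 mice were C57Bl/6 with both copies of the R26NC allele (R26NC/NC), 1 array per mouse. Controls were sorted CD4+CD8+ double-positive (DP) thymocytes of 2 CD4Cre- mice aged 6 weeks. Pre-transformed cells were sorted DP thymocytes of 3 CD4Cre+ mice of the same age, in which Cre recombinase under Cd4 control switches on an activated β-catenin. Tumours were the unsorted thymic cells of 4 CD4Cre+ mice aged 28, 26, 23 and 21 weeks (tumours 1 to 4). Cre was thus present in every mouse with activated β-catenin and in no control, and the labels name no Cre-positive control without the allele. Sorted cells were over 98% DP and had their RNA (0.1 µg) amplified with a kit before hybridization, and tumour cells were at least 95% DP and went through a different labelling protocol (2.5 µg). Age, sorting and labelling therefore cannot be told apart from the tumour state. Precision is limited by how few arrays each group has.

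The cytosolic ribosome reads mRNA on its small subunit and joins amino acids on its large subunit, and each subunit is built from ribosomal RNA and many proteins, most of them needed in equal number. Their mRNAs are among the most abundant in growing cells. They typically start with a C followed by a run of pyrimidines, the 5′ terminal oligopyrimidine or TOP motif, through which mTOR signalling controls their translation. Loss of a single ribosomal protein gene can impair blood formation, as in Diamond-Blackfan anaemia, and ribosomal proteins that are not built in can stabilise p53.

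Some of these genes carry a run of pyrimidines near the annotated start and some do not, and windows of both kinds were picked here to show it. Below are 60-base windows, from 40 bases before to 20 bases from the annotated start onward, from RefSeq on GRCm38.p6. Capitals mark an unbroken run of at least 8 C or T within 10 bases of the start. Such a run need not cover the annotated start (that of Rpl4 ends before it) or begin with a C. It is therefore not by itself a TOP motif. The first 6 have such a run and belong to members whose tumour signals are described further on. The last 3 do not.
Rpl35, chr2:39005112-39005171, minus strand: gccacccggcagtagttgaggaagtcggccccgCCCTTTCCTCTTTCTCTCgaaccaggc
Rpl4, chr9:64173347-64173406, plus strand: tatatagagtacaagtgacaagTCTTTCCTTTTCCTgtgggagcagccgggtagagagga
Rps18, chr17:33955646-33955705, minus strand: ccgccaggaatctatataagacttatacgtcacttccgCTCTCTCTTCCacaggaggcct
Rps6, chr4:86857348-86857407, minus strand: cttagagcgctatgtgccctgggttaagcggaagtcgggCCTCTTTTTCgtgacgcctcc
Rplp2, chr7:141447611-141447670, plus strand: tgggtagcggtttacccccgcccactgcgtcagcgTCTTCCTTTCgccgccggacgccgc
Rpl22l1, chr3:28805468-28805527, plus strand: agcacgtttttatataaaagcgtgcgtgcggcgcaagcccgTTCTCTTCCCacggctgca
Rps2, chr17:24720023-24720082, plus strand: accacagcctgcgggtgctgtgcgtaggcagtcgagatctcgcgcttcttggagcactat
Rps19bp1, chr15:80264287-80264346, minus strand: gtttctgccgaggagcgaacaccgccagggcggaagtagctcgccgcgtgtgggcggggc
Rpl7l1, chr17:46782637-46782696, minus strand: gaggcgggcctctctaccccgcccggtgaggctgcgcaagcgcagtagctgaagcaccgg

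RefSeq gave a promoter for 43 of the 49 genes, 51 promoters in all. A pyrimidine run as defined above was found in 20 of the 51 (39.2%), against 13.7% of all 32851 promoters in the table. The core motif of ETS factors, CCGGAAG on either strand, was found in 20 of the 51 promoters (39.2%) over 250 bases before to 50 bases after the start, against 8.86% of all. AAGATGG, the core of the YY1 motif, was found in 8 (15.7%, against 6.34%). CACGTG, the E-box that Myc and Max can bind, was found in 5 (9.8%, against 7.15%), in Rpl13a, Rpl14, Rps19 and both overlapping promoters of Rpl19. An ETS match followed by ATGG also holds a YY1 match. They are letter matches only and say nothing of which factor was bound in these cells.

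Signals are MAS5 intensities, whose trimmed mean, checked on the values, is the same on every array. A set of 35 genes had a mean signal of at least 1000, a threshold set after seeing the data, and 33 to 34 of them lay in the top 1% of their array in every mouse. Their median signal was 4509 and 5169 on the control arrays, 4474 to 5148 on pre-transformed arrays and 7012 to 8274 on tumour arrays. The top of the whole array differed too: the brightest 0.1% of probe sets began at 5047 to 5649 in controls, 5094 to 5637 in pre-transformed cells and 7327 to 9052 in tumours. In rank, the median gene of the 35 lay at the 99.79th to 99.81st percentile of the array in controls, at the 99.77th to 99.81st in pre-transformed cells and at the 99.84th to 99.87th in tumours. In bulk RNA, a change in the number of cells of a type and a change in RNA per cell cannot be told apart.

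**Figure D1:**
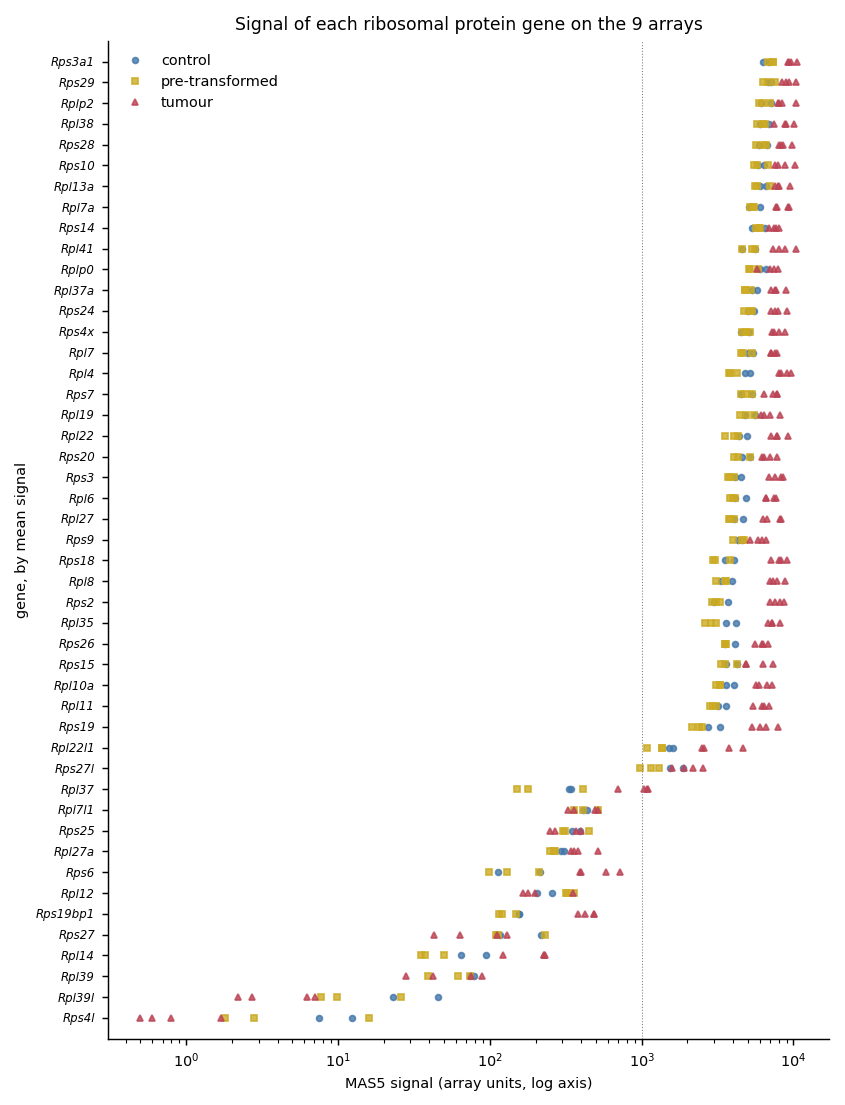
Signal (MAS5 units, log axis) of the 47 ribosomal protein genes that passed the filter, ordered by mean signal, with 1 point per mouse; the dotted line marks 1000. The 35 genes right of the line form a tight band in which most tumour points lie to the right of the sorted-cell points, while the 12 genes left of it are mixed.

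Tumour arrays also differed from sorted-cell arrays in the β-actin 3′ to 5′ ratio and in the summed signals of cell type markers. The β-actin 3′ to 5′ log2 ratio, which rises as the far end of the transcript is lost, averaged 0.81 over the 4 tumours (SD 0.28) and 0.26 over the 5 sorted-cell arrays (SD 0.05). An exact permutation test (two-sided) gave p = 0.00794, the smallest that 126 splits can give. The Gapdh ratio averaged −0.31 over the 4 tumours (SD 0.19) and −0.20 over the 5 sorted arrays (SD 0.12), and the same exact permutation test gave p = 0.317. The summed signal of 9 DP markers ran from 22854 to 26035 in sorted cells and from 9614 to 13821 in tumours, none at 0. The summed signal of 11 myeloid markers was 136 to 266.2 on sorted arrays, 164 in tumour 2 and 3193 to 3606 in the other tumours. That of 7 B cell markers was 248 to 299.3 on sorted arrays, 29.8 in tumour 2 and 497 to 802 in the other tumours. The sums of 12 stromal markers (167 to 235 sorted, 207 to 466 in tumours) and 5 erythroid markers (4.6 to 19.3 and 40.1 to 90.1) were low throughout, and no marker of these lists was at 0. Tumour 2, with myeloid and B cell sums in or below the sorted range, exceeded all 5 sorted arrays in 35 of the 35 bright genes. Tumour 1 and tumour 3 also did so in 35, and tumour 4 in 33. The share of all genes that did so is not given here. The brightest 0.1% of all probe sets also began higher in tumour 2 (7327) than on the sorted arrays (5047 to 5649). The part of admixed cells, labelling and RNA quality in the results below was not tested.

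Pre-transformed and control cells, which share sorting, age and labelling, were compared to ask whether activated β-catenin alters ribosomal protein mRNA before tumours appear. None of the 47 genes passed the test (limma, Benjamini-Hochberg adjusted p under 0.05 over 11644 genes; the background was 1.11% of all genes called higher and 0.524% called lower). At an unadjusted p under 0.05 (limma), 1 gene was higher and 8 were lower. The share of all genes at that unadjusted threshold is not given here, so these counts cannot be set against a background. Of the 47 differences 43 were below 0, and the median log2 difference was −0.12, against 0.02 over all genes. It was −0.05 without control 2 and −0.21 without control 1, and control 2 read higher than control 1 in 35 of the 35 bright genes. The arrays did not overlap in 1 gene on the higher side and 14 on the lower side, against 20.6% and 15.6% of all genes. With every probe set tested as a feature of its own, an alternative added after seeing the data, 2 probe sets of these genes were called lower (background 0.587% higher and 0.246% lower).

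The smallest p-value belonged to Rps27l, a small-subunit protein nearly identical to Rps27 and a known target of p53. Its representing probe set read 1540 and 1881 in controls and 970, 1149 and 1305 in pre-transformed cells. The groups did not overlap, and the log2 difference was −0.59 ± 0.15 (SE, adjusted p = 0.0932). A second probe set of Rps27l read 1269 and 1378 against 828, 772 and 767, which passed the test over every probe set (log2 difference −0.75, adjusted p = 0.0299). The third read 1137 and 1197 against 783, 851 and 767 and did not pass (−0.55, adjusted p = 0.0647). All 3 probe sets thus read lower in every pre-transformed mouse than in either control, and 1 of the 3 passed. As a gene, Rps27l was called lower in 2 of 14 alternatives (limma, smallest adjusted p = 0.0335).

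Rpl35, which sits at the exit of the nascent chain tunnel, read 3594 and 4171 in controls and 2614, 3083 and 2883 in pre-transformed cells, with no overlap (log2 difference −0.44 ± 0.12 SE, adjusted p = 0.108). Rpl4, whose extended loop lines the tunnel, read 4782 and 5200 against 3746, 4269 and 3809 (−0.34 ± 0.11 SE, adjusted p = 0.159). Rps19, the gene most often mutated in Diamond-Blackfan anaemia, read 2741 and 3298 against 2142, 2370 and 2511 (−0.36 ± 0.12 SE, adjusted p = 0.176). These 3 were lower in every pre-transformed mouse than in either control, but none passed the test.

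Rpl14, of the large subunit's solvent side, was read by a dim probe set at 64.2 and 94.4 in controls and 37.5, 50.2 and 35.1 in pre-transformed cells (−0.95 ± 0.25 SE, adjusted p = 0.104). The largest negative differences were in Rpl39l (−1.37) and Rps4l (−1.16), forms of Rpl39 and Rps4 expressed in few tissues, whose signals were below the 65th percentile of all 9 arrays apart from control 2 for Rpl39l. Rpl37, whose probe set was also dim, read 330 and 344 against 177, 413 and 152, so that its groups overlapped (−0.60 ± 0.36 SE).

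Rpl12, which helps anchor the stalk where elongation factors bind, went the other way. It read 256.5 and 203 in controls and 317, 359 and 321 in pre-transformed cells, with no overlap and a log2 difference of 0.54 ± 0.14 (SE, adjusted p = 0.0940). The other 3 positive differences were small, at 0.12 in Rps3a1, 0.03 in Rps4x and 0.02 in Rpl41. Set against the median of all these genes on each array, Rpl12 was the one member that passed the test (relative log2 difference 0.73, adjusted p = 0.0476; background 3.56% higher and 0.301% lower). It did not pass with the centre taken from probe sets without an a, s or x suffix in their names. Nor did it pass without control 2 or any 1 of the pre-transformed mice.

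**Figure D2:**
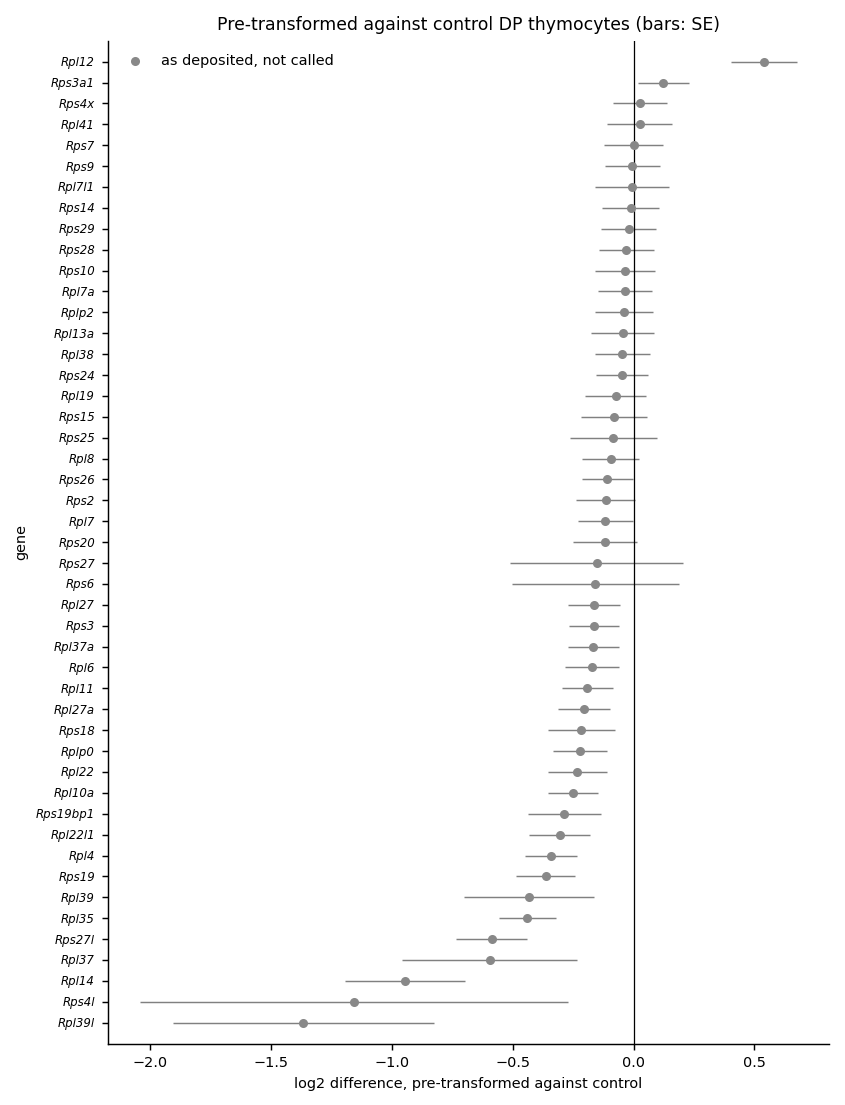
Log2 difference of pre-transformed against control DP cells for the 47 genes, with bars of 1 SE; grey points did not pass the test. No point is called, and most lie just left of 0, with Rpl12 alone clearly to the right.

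The most divergent reading came from Rps10, which lies in the head of the small subunit and is mutated in some Diamond-Blackfan anaemia patients. Its brightest probe set read 5868 and 6392 in controls and 5736, 6797 and 5479 in pre-transformed cells, a log2 difference of −0.03. The dimmest of its 5 bright probe sets read 2013 and 3316 in controls, 434, 300.2 and 338 in pre-transformed cells and 2061, 1773, 1846 and 1198 in tumours. It was called lower before transformation (−2.87, adjusted p = 0.00311 over every probe set) and higher from there to tumours (2.26, adjusted p = 7.78e-05). None of its other bright probe sets was called lower, with signals of 3018 or more in every mouse, and which transcript the divergent one reads was not tested.

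In tumours against pre-transformed cells, most ribosomal protein genes read higher. Of the 47 genes, 40 rose, 1 fell and 6 were not called, while 23.9% of all genes tested rose and 31% fell. The median log2 difference was 0.64, or 1.56-fold, against −0.12 over all genes. All 35 bright genes rose, by 0.36 to 1.45, and in 34 of them the 4 tumours lay above the 3 pre-transformed mice. Over the 47 genes the arrays did not overlap in 39 on the higher and 2 on the lower side, against 24.8% and 32.1% of all genes. Large-subunit genes (21 of 25 higher, median 0.66) and small-subunit genes (19 of 22, median 0.62) gave like counts.

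The size of that shift depended on the scaling of the arrays. With quantile normalization, which gives every array the same spread of values, 20 of the 47 rose and 3 fell, with a median of 0.09 (background 23.9% and 28.2%). Rps14, for one, was then lower in tumours (−0.21) and no longer higher. With each array centred on its median signal, 24 rose and 4 fell (median 0.38, background 16.1% and 36.7%). Probe sets without an a, s or x suffix gave 10 higher and 2 lower of 24 genes, and the share of all genes called in that setting is not given here. Of the 35 bright genes, 32 were read by a suffixed probe set. Whether those probe sets also read other genes was not tested. The genes called higher in every alternative that tested them, each mouse left out included, numbered 16: Rpl4, Rpl6, Rpl8, Rpl10a, Rpl11, Rpl14, Rpl22l1, Rpl27, Rpl37, Rps2, Rps3, Rps6, Rps19, Rps19bp1, Rps26 and Rps27l; a gene without an unsuffixed probe set was not tested in that alternative.

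**Figure D3:**
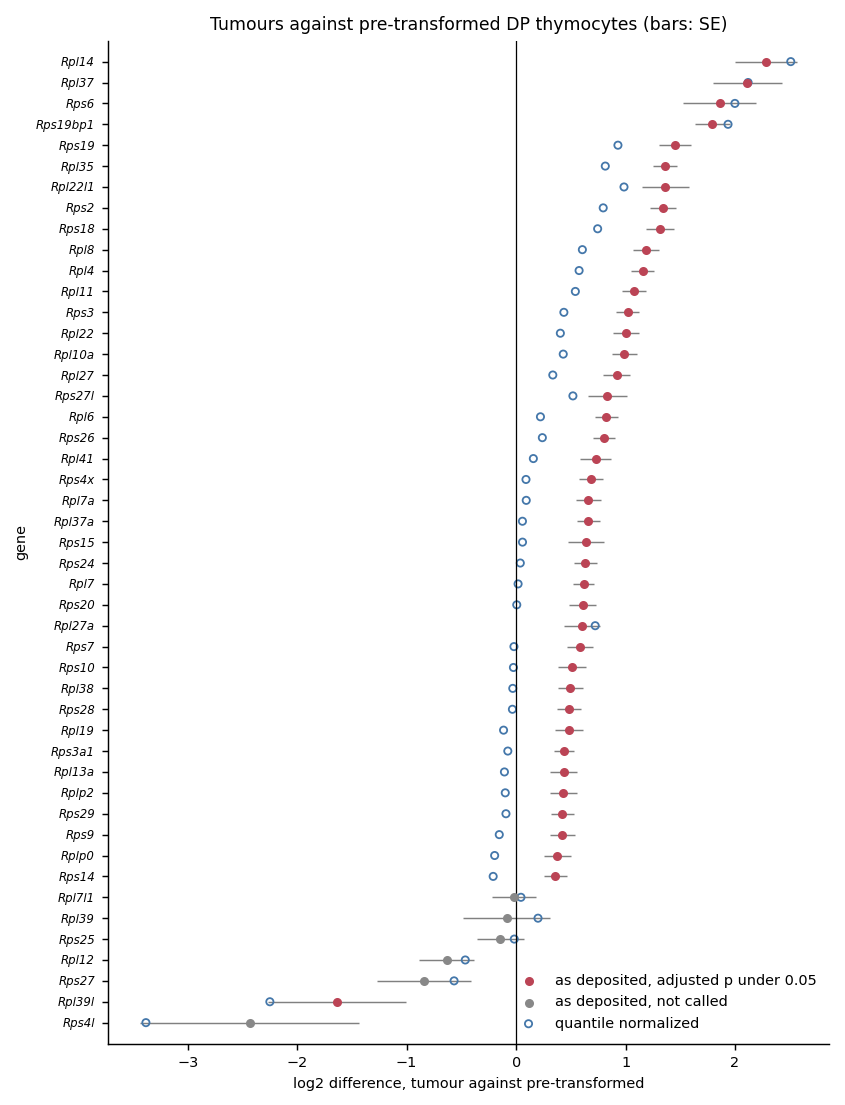
Log2 difference of tumours against pre-transformed cells for the 47 genes (filled points, bars of 1 SE; red passed the test, grey did not) and the same difference after quantile normalization (open circles). Quantile normalization moves bright genes toward or below 0, while the top genes from Rpl14 to Rpl27 stay to the right of 0 on both scales.

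On a chosen list headed decoding centre, mRNA channel and head, 5 of 5 measured genes rose (3 of 5 with quantile normalization, and 3 of 3 with no suffixed probe sets). Of all genes 23.9% rose, and of the 47 members 40 did. The list took in Rps2, Rps3, Rps6, Rps15 and Rps28. It left out Rps10, Rps18 and Rps29 of the head, which rose too, though Rps10 and Rps29 turned negative with quantile normalization. Rps2, at the mRNA entry channel, read 2892, 3279 and 3092 in pre-transformed cells and 8126, 7578, 8714 and 7005 in tumours. Every tumour was over every sorted array, and the log2 difference was 1.34 ± 0.12 (SE, adjusted p = 2.34e-05; 0.79 with quantile normalization). Rps3, also at the entry channel and a repair-associated protein outside the ribosome, rose by 1.02 ± 0.10 from 3708 to 4032 up to 6951 to 8499. Rps15 and Rps28 had smaller differences of 0.64 and 0.48, of which that of Rps28 turned slightly negative with quantile normalization (−0.03).

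Rps6, the small-subunit protein phosphorylated by S6 kinases downstream of mTOR, was read by a dim probe set at 99.5, 211 and 130 in pre-transformed cells and at 725, 390, 583 and 401 in tumours (1.86 ± 0.33 SE, adjusted p = 0.00107). Tumours did not overlap the sorted cells, whose control values were 113 and 216. Rps18, at the top of the head, rose from 3030, 3830 and 2945 to 8237, 7084, 9025 and 8030 (1.31 ± 0.13 SE, adjusted p = 3.98e-05).

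On a chosen list for the tunnel exit, 3 of 4 measured genes rose with a median of 1.08 (3 of 4 with quantile normalization). Of all genes 23.9% rose, and of the 47 members 40 did. With no suffixed probe sets 0 of 3 were called, with a median of −0.09. Rpl35 read 2614, 3083 and 2883 in pre-transformed cells and 7226, 6803, 8188 and 7214 in tumours. That is a log2 difference of 1.36 ± 0.11 (SE) and the smallest adjusted p of these genes (1.7e-05). All 5 bright probe sets of Rpl35 rose, by 1.09 to 1.46, and a dim unsuffixed one gave −0.14 (adjusted p = 0.820). Rpl4 rose by 1.15 ± 0.10 (SE, adjusted p = 2.7e-05), from 3746, 4269 and 3809 to 9650, 8043, 9122 and 8320. Rpl39, the small protein that lines the tunnel, had overlapping signals of 39.1 to 74.5 and 28.2 to 88.6.

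On a chosen list of genes altered in T cell leukaemia or in Diamond-Blackfan anaemia, 7 of 7 measured rose, with a median of 0.80. With quantile normalization 4 of 7 rose (median 0.24). Of all genes 23.9% rose, and of the 47 members 40 did, so the count is not particular to this list. With no suffixed probe sets 0 of 3 were called, with a median of 0.13. Rps19 read 2142, 2370 and 2511 in pre-transformed cells and 6000.3, 5308, 7863 and 6622 in tumours, with the largest log2 difference of any bright gene (1.45 ± 0.14 SE, adjusted p = 4.24e-05). Rpl11, which with Rpl5 and 5S rRNA binds Mdm2, rose by 1.08 ± 0.11 (SE), from 2942, 3078 and 2825 to 6931, 5437, 6422 and 6196. Rps26, Rps24, Rps7 and Rps10 rose by 0.80, 0.63, 0.58 and 0.51, and with quantile normalization Rps7 and Rps10 were at −0.02.

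Rpl22, deleted in some human T cell leukaemias and needed for αβ T cell development in mice, and its duplicate Rpl22l1 both rose. The brightest probe set of Rpl22 read 3563, 4282 and 4072 in pre-transformed cells and 7831, 7125, 9140 and 7766 in tumours (1.00 ± 0.12 SE, adjusted p = 9.94e-05). Rpl22l1 read 1365, 1365 and 1089 against 4636, 2570, 3749 and 2514 (1.36 ± 0.21 SE, adjusted p = 0.0005), so that tumours 1 and 3 were the highest. An unsuffixed probe set of Rpl22 gave a different picture, with 1493, 2189 and 1550 against 1870, 2210, 1484 and 4394. Tumours 1 and 3 did not exceed the highest pre-transformed mouse, and it did not pass (0.41, adjusted p = 0.310). The third probe set of Rpl22, a dim suffixed one, rose from 117.8, 111.5 and 99.3 to 238.7, 254.6, 190.6 and 242.1 (1.07, adjusted p = 0.000851, limma over every probe set). Before transformation the 3 probe sets of Rpl22 had log2 differences of −0.23, −0.76 and −0.83 against controls, none of which passed (the smallest adjusted p was 0.0534). As a gene, Rpl22 was called lower than in controls in 1 of 15 alternatives (limma, adjusted p = 0.0494).

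Rps27l rose from its low pre-transformed level of 970, 1149 and 1305 to 2550, 1888, 2174 and 1585 in tumours (0.83 ± 0.18 SE, adjusted p = 0.00301). Against controls it was not called (0.25 ± 0.20 SE, adjusted p = 0.338), and that difference turned to −0.06 with quantile normalization. Tumour 4 lay between the controls. Tested over every probe set, the second probe set of Rps27l was called higher than in controls (0.72, adjusted p = 0.00769) and the third was not (0.47, adjusted p = 0.0589). Its pair Rps27 had a dim probe set, at 110 to 232 and 43.2 to 131, and was not called.

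The stalk that recruits elongation factors had some of the smallest differences. Rplp0, its base, read 5087, 5853 and 5204 in pre-transformed cells and 7478, 6966, 7890 and 5746 in tumours. Tumour 4 fell within the pre-transformed range, and the log2 difference was 0.38 ± 0.12 (SE, adjusted p = 0.0265), or −0.20 with quantile normalization. Rplp2, which forms its flexible arms, rose by 0.43 ± 0.12 (SE, −0.10 with quantile normalization). Rpl12 read 317, 359 and 321 against 198, 166, 354 and 179. It was not called (−0.64 ± 0.25 SE, adjusted p = 0.0542), and tumour 3 alone matched the pre-transformed cells.

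**Figure D4:**
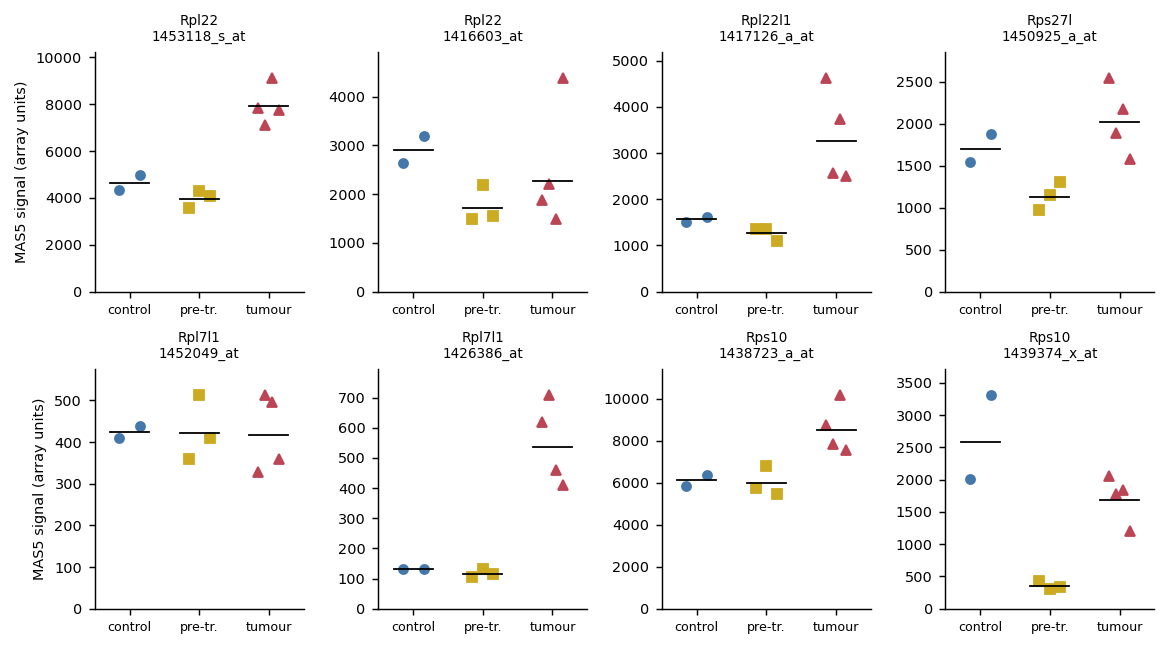
Signal of selected probe sets (MAS5 units, axes from 0) in each control, pre-transformed and tumour mouse; black bars are geometric means. Rpl22l1 and the brightest Rpl22 probe set are higher in all 4 tumours, the second Rpl22 probe set in tumour 4, and the 2 probe sets of Rpl7l1 and of Rps10 give different patterns.

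Genes read by dim probe sets differed from one another, and how well those probe sets read their transcripts was not tested. Rpl14 read 37.5, 50.2 and 35.1 in pre-transformed cells and 229, 229, 232 and 122 in tumours (2.28 ± 0.28 SE, adjusted p = 0.000131), and Rpl37 read 177, 413 and 152 against 1096, 703, 1081 and 1034 (2.11 ± 0.32 SE, adjusted p = 0.000382). These were the largest differences among the representing probe sets. Rps19bp1, which encodes a binding partner of Rps19 and no ribosomal protein, matches by its symbol alone and rose by 1.79 ± 0.16 (SE), from 116 to 148 up to 384 to 485.

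The tissue-restricted forms Rpl39l and Rps4l read low. Rpl39l was the only gene of the 47 called lower, with 7.7, 25.9 and 9.9 in pre-transformed cells and 6.3, 7.1, 2.2 and 2.7 in tumours (−1.64 ± 0.63 SE, adjusted p = 0.0487). These values lie under the 65th percentile of each array (28.5 to 44.6). The call held in 9 of 17 alternatives, with adjusted p up to 0.21 (limma). Among others, it was lost with an offset of 10 added, with only the 2 groups, and without pre-transformed mouse 2, pre-transformed mouse 3 or tumour 4. Rps4l read 2.8, 15.9 and 1.8 against 0.8, 0.6, 1.7 and 0.5 and was not called. Rpl7l1, a duplicate of Rpl7, gave −0.02 ± 0.20 (SE, adjusted p = 0.937) at its brightest probe set, while a second one rose from 105, 133 and 114 to 618, 709, 461 and 409 (2.20, adjusted p = 5.74e-05).

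The genes did not rise by the same amount. Relative to the median of these genes on each array, 11 of the 47 rose further and 24 lagged (background 8.25% higher and 58.7% lower). Lagging on this scale was thus common over all genes and is not particular to these. The median relative log2 difference of the 47 was itself −0.28. Those that lagged with the smallest p were Rps14, Rpl12, Rps3a1, Rps29, Rplp0, Rps28 and Rplp2, and those that rose further were led by Rpl35, Rpl14 and Rps2. The number that lagged was 6 when the centre came from members without a suffixed probe set, and 7 rose further without pre-transformed mouse 1. Rps29, of the small subunit head, was the brightest in controls (6838 and 7132) and read 6334, 7555 and 6811 in pre-transformed cells and 9286, 8443, 10342 and 8894 in tumours, a log2 difference of 0.42 ± 0.10 (SE, −0.09 with quantile normalization). Rps14, across the platform of the small subunit, rose by 0.36 ± 0.10 (SE, adjusted p = 0.0145), the smallest rise called.

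Brighter genes had smaller differences. Across the 35 bright genes, which share the same 9 arrays and are not replicates, the control signal and the log2 difference had a Pearson correlation of −0.70 and a Spearman correlation of −0.82 (−0.78 and −0.82 with quantile normalization). The 10 dimmest of them (control means 1565 to 3872) had a median difference of 1.25, from 0.80 to 1.45. The 10 brightest (5561 to 6983) had a median of 0.44, from 0.36 to 0.66. The same held among probe sets of 1 gene: of 18 genes with several bright probe sets, every other bright probe set rose more than the brightest in 11. Rps9, for example, rose by 0.42 at its brightest probe set (3985 to 4725 before, 5156 to 6585 in tumours) and by 1.97 at a dimmer one (832 to 1207 before, 3536 to 4197 in tumours). A dim unsuffixed probe set of Rps9 went the other way, at 130 to 211 before and 44.8 to 176 in tumours (−1.08). Rps7 gave 0.58 and 1.55, and Rps24 0.63 and 1.07 to 1.83. The exceptions, where no other bright probe set rose more, were Rpl22, Rpl37a, Rpl41 and Rps18.

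**Figure D5:**
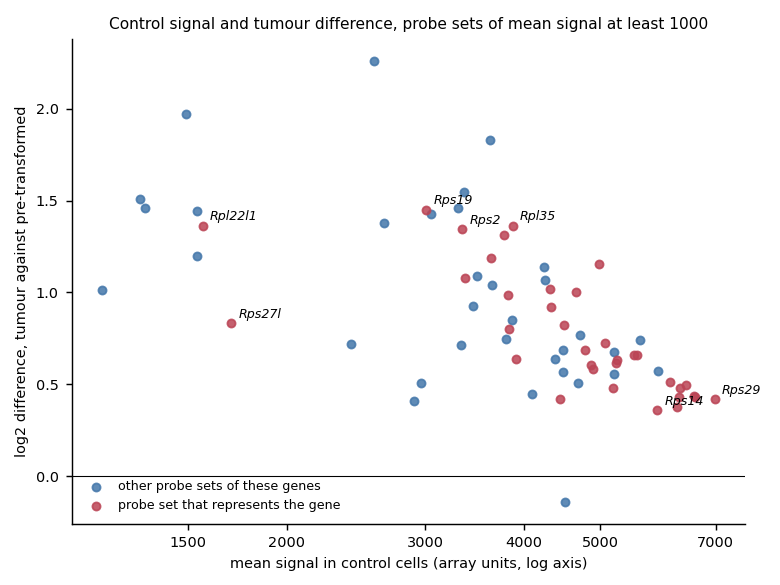
Log2 difference of tumours against pre-transformed cells plotted on the mean control signal (log axis) for probe sets of mean signal at least 1000; red points represent a gene and blue points are its other probe sets. The median difference falls from 1.25 in the 10 dimmest red points to 0.44 in the 10 brightest.

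Bright probe sets left out of the gene table gave like directions, and dim ones were mixed. Of 51 tested probe sets of these genes that do not represent one, 37 rose and 0 fell, and of 34 bright ones 32 rose (limma over every probe set; background 23.1% higher and 26.7% lower). Of 17 dim ones 5 rose, with differences from −1.08 to 2.20. None of the 51 was lower at an adjusted p under 0.05, although a bright probe set of Rpl7 had a difference of −0.14. Among 107 probe sets that name a ribosomal protein gene and another gene together, 89 rose and 1 fell, with a median of 0.81. Genes with and without a pyrimidine run gave like counts: 17 of 20 with a run rose (median 0.62) and 18 of 21 without one (median 0.73).

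Tumours against controls share the tumour arrays with the comparison above, so that it is no second test of them. Here 37 of the 47 rose, 2 fell and 8 were not called, with a median of 0.56 against −0.08 over all genes (background 20.5% higher and 25.2% lower). The arrays did not overlap in 38 on the higher and 2 on the lower side, against 27.4% and 33.1% of all genes. Without control 1, 16 rose. With quantile normalization 13 rose and 4 fell (median 0.04, background 19.1% and 22.9%), and with median centring 11 rose and 4 fell (median 0.17, background 10.8% and 35.5%). Relative to the members' median 6 rose further and 16 lagged (background 7.81% and 48.5%), or 2 and 3 without control 1 and 3 and 6 without control 2. Among probe sets that name a ribosomal protein gene and another gene, 80 of 107 rose and 1 fell (every probe set, background 19.4% and 20.5%). The differences with the smallest p were those of Rps2 (1.23 ± 0.13 SE, adjusted p = 0.000142), Rps19bp1 (1.51), Rpl8 (1.09), Rps18 (1.10) and Rpl35 (0.92). Rpl8, which lies close to the peptidyl transferase centre, read 3352 and 3933 in controls and 7838, 7012, 8835 and 7377 in tumours. Those called higher in every alternative that tested them, each mouse left out included, were Rpl8, Rpl11, Rps2, Rps3, Rps19 and Rps19bp1. Rplp0 was not called (0.16 ± 0.14 SE), and read lower in tumours with quantile normalization (−0.44). Rpl39l (−3.00) and Rps4l (−3.59) were called lower from control signals of 23.1 and 45.3, and 7.5 and 12.3, near or under the 65th percentile.

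Genes that work with these proteins were read from lists, and their tumour values against pre-transformed cells are given here, beside a background of 23.9% of all genes higher and 31% lower (23.9% and 28.2% with quantile normalization). Of 15 measured chaperones and importins of ribosomal proteins 13 rose and 0 fell, with a median log2 difference of 1.56. The counts were 13 and 1 with quantile normalization, 12 and 0 with median centring, and 11 and 0 of 14 with no suffixed probe sets. Ipo4 rose by 3.24 ± 0.25 (SE, 42.2 to 66.8 before, 393 to 723 in tumours), Ipo7 by 1.67 and Ipo5 by 2.06, all nuclear import receptors. Nasp, a histone chaperone that is also on that list, rose by 2.25.

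Of 19 other mRNAs known to carry a TOP motif, 14 rose and 0 fell, with a median of 0.80. The counts were 9 and 2 with quantile normalization, 10 and 0 with median centring (background 16.1% and 36.7%), and 6 and 2 of 12 with no suffixed probe sets. Npm1, the nucleolar chaperone nucleophosmin, rose by 1.71 ± 0.12 (SE, 1717 to 2215 before, 6034 to 6488 in tumours). The elongation factor gene Eef1b2 rose by 1.38, and the initiation factor genes Eif3e and Eif4b by 1.35 and 1.32. Rpsa, a ribosomal protein gene whose symbol the rule does not take, rose by 1.23 ± 0.14 (SE).

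Of 16 measured genes of mTOR signalling and TOP control, 5 rose and 9 fell, with a median of −0.88 (5 and 6 with quantile normalization). Eif4e, the cap-binding protein, rose by 2.16, its inhibitor Eif4ebp1 by 3.34 and the mTOR activator Rheb by 1.16, while Rictor, a subunit of mTOR complex 2, fell by 1.56. Larp1, which binds the TOP motif, rose by 0.98 ± 0.14 (SE), and Mtor itself fell by 0.92 ± 0.19 (SE); both were chosen after their values were seen. Of 11 ribosome rescue genes 4 rose and 3 fell, among them the ribosome recycling factor Abce1 (1.55), G3bp1 (0.91), Usp10 (1.24) and Gtpbp2 (−2.52).

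Of 10 measured drivers of ribosome synthesis 5 rose and 2 fell. The counts were 5 and 1 with quantile normalization, 4 and 3 with median centring, and 2 and 1 of 7 with no suffixed probe sets. Myc, whose protein raises transcription by all 3 RNA polymerases, read 59.4 and 88 in controls, 53.3 to 116 in pre-transformed cells and 1192 to 1722 in tumours (4.21 ± 0.27 SE, adjusted p = 7.56e-06). Polr1b and Polr1a, both large subunits of RNA polymerase I, rose by 3.63 and 2.20, and Gtf3a by 0.98. Those lower (picked for naming with their values known) were Max, the partner with which Myc binds DNA (−1.66 ± 0.63 SE, adjusted p = 0.0454; −1.55 and adjusted p = 0.0749 with quantile normalization), and Ubtf, which opens ribosomal DNA for RNA polymerase I (−0.86 ± 0.28 SE, adjusted p = 0.0257). Of 6 measured genes of the p53 pathway that free ribosomal proteins can engage, regulators of p53 included, 2 rose and 2 fell. Cdkn1a, a p53 target, rose by 2.72, and Cdkn2a, whose Arf product restrains Mdm2, by 4.05, though Cdkn2a ranged from 1.6 to 104 among tumours and missed the threshold with quantile normalization, and the p53 inhibitors Mdm2 (−0.71, also a p53 target) and Mdm4 (−1.36) fell.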

How the data were processed

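RNA of 9 mice (2 control, 3 pre-transformed, 4 tumour) was measured on 1 expression array each. The authors deposited MAS5 signal intensity on a linear scale, per the submitters' processing notes; the version of MAS5 and the genome build are not given in the sources used here. Values of 0 (218) were set to 0.1 and log2 was taken, with no further normalization. The table holds 45101 probe sets, of which 64 controls were left out. Of the rest 34945 named 1 gene, 932 several and 9160 none in the platform annotation. Probe sets at or above their array's median on at least 2 arrays were kept (26421), and each gene was represented by its brightest, which gave 11644 genes. The test was limma (version 3.58.1, R version 4.3.3; lmFit, then eBayes with a variance trend). Tumour comparisons used all 9 arrays, and the other comparison its own 5. The threshold was a Benjamini-Hochberg adjusted p under 0.05 over all genes tested. The method was tested on simulated data. Replicate numbers name different mice, so no pairing was used. Each sample came from its own mouse.

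The members, lists and tests were chosen with earlier results of these data known. Members are named by list, by the 5 largest differences each way, the 5 smallest p per comparison, by calls against the direction of most, and by up to 10 calls relative to the members' median; genes of other lists by the 4 smallest p. Alternatives were no filter, quantile normalization, median centring, an offset of 10, the mean of probe sets, no suffixed probe sets, no variance trend, robust variance, other sets of arrays, a replicate block and each mouse left out; testing every probe set was added after seeing the data. Sequences came from RefSeq (GRCm38.p6) by symbol. Plots used matplotlib 3.10.9 (Python 3.11.15).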

Additional observations from a re-analysis of the deposited data

Results flagged for a closer look

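Tumours were searched for an array far from the other 3, in each of the 49 genes. In Rpl14 tumour 4 lay lowest, at 122 against 229 to 232, with a gap of 0.979 of the range. In Rpl37 tumour 2 lay lowest, at 703 against 1034 to 1096 (0.87 of the range). In Rps16 tumour 3 lay highest, at 0.8 against 0.3 in the other 3 (1 of the range), signals near 0 that were not tested. Chance marks about 1 in 20 groups, and 3 of 49 were marked here.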

How the results depend on the processing

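For tumours against pre-transformed cells, members higher and lower and their median log2 difference were 20, 3 and 0.090 with quantile normalization, 24, 4 and 0.38 with median centring, and 10, 2 and 0.26 with no suffixed probe sets. The share of all genes called with no suffixed probe sets is not given here, for any comparison. Members lower numbered 0 with an offset of 10, with only the 2 groups and with every probe set tested, and 2 with no variance trend. Against controls the values were 13, 4 and 0.043 with quantile normalization, 11, 4 and 0.17 with median centring, and 7 higher with a median of 0.064 for no suffixed probe sets; 1 was lower with only the 2 groups. Pre-transformed against control, the median was −0.25 with median centring, and 2 were lower with the mean of probe sets. With the centre from members without a suffix, 0 lay above the members' median before transformation, and 6 and 4 lay below it in tumours against pre-transformed and control cells. The causes were not tested. Leaving out 1 mouse gave, for pre-transformed against control, medians of −0.21 to −0.051, 0 to 1 lower, 0 to 1 above and 0 to 1 below the members' median. It gave 0 to 2 lower and 7 to 11 above for tumours against pre-transformed cells, and 16 to 37 higher, 0 to 2 lower, 2 to 7 above and 3 to 16 below against controls. Without control 2, 3 lay above and 6 below the members' median against controls, and without control 1, 2 and 3. The numbers pair no mice (correlations of same-numbered deviations −0.02 to 0.08); with a replicate block 1 was lower before transformation, 40 rose and 1 fell in tumours against pre-transformed cells, and 30 rose and 2 fell against controls.

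Single genes reversed as follows. With quantile normalization, tumours against pre-transformed cells gave Rpl38 −0.031, Rplp0 −0.20, Rplp2 −0.10, Rps10 −0.0247, Rps14 −0.21, Rps28 −0.034, Rps29 −0.093, Rps3a1 −0.076, Rps7 −0.020, Rps9 −0.15, Rpl39 0.20 and Rpl7l1 0.044, and against controls Rplp0 −0.44 and Rps27l −0.0551. With median centring, Rps3a1 was −0.0093 before transformation, and Rplp0 −0.23 and Rps27l −0.14 in tumours against controls. With no suffixed probe sets, tumours against pre-transformed cells gave Rpl35 −0.14, Rps10 −1.06 and Rps9 −1.08, and against controls Rpl22 −0.35 and Rpl35 −0.28. Rpl7l1 was 0.76 with the mean of probe sets and 0.049 with the replicate block. Leaving out 1 mouse gave Rps25 −0.26 to 0.043, Rpl39 −0.35 to 0.22 and Rpl7l1 −0.14 to 0.12. Dim signals limit what Rpl39l, Rps4l and Rps27 can show.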
